A study of Mus musculus with 6 samples.

Results

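The tetraspanin genes and the Emp/Pmp22 genes were described in RAW264.7 cells, a mouse macrophage line transformed by Abelson leukaemia virus, on pristine or modified PEEK (polyetheretherketone, an implant plastic). Members were chosen by gene symbol: every symbol made of Tspan and a number, with Cd9, Cd37, Cd53, Cd63, Cd81, Cd82, Cd151, Emp1, Emp2, Emp3 and Pmp22. This gave 30 of the 19505 genes measured, 26 tetraspanins and 4 of the Emp group. Where a gene had several probe sets, that with the highest mean over the 6 arrays was to be kept, but each member had only 1. The family was proposed with earlier results of these data known, among them the low Emp2 signal on modified PEEK, so the counts below describe the members and support no statement about the family as a class.

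Both groups held this 1 line with no genetic change named in the labels. The cells grew for 3 days on the polymer in wells of culture plates, in serum-containing DMEM with penicillin and streptomycin for both groups. The control group was 3 samples on pristine PEEK, and the other was 3 samples on modified PEEK; the labels do not say what the modification was. Total RNA of each sample was hybridised to 1 Affymetrix expression array, and the values are log2 signals per probe set. The labels speak of triplicates without naming separate cultures, so the spread behind each p-value is that among these samples and may be technical. In such bulk samples fewer cells of a type and less RNA per cell cannot be told apart.

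Tetraspanins are small membrane proteins that cross the membrane several times and gather integrins, immunoglobulin-type proteins and proteases into membrane microdomains. In macrophages and other leukocytes they are known for roles in adhesion, antigen presentation, cell fusion and the loading of exosomes. Emp1, Emp2, Emp3 and Pmp22 form a separate family of proteins with the same number of membrane spans, related to the claudins of tight junctions and not to the tetraspanins by sequence.

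Array medians over genes lay between 4.98 and 5.10, and arrays of the same surface correlated at 0.991 to 0.995 over genes, and arrays of different surfaces at 0.985 to 0.988. Background was set at a signal of 3.72, below which 95% of 1412 smell and pheromone receptor genes lay. All 7 measured macrophage markers were above it, and their summed log2 signal was 73.2 to 73.5 on pristine and 72.3 to 72.6 on modified PEEK, with Itgam and Fcgr1 lower and Adgre1 higher by limma. The endothelial list had 0 of 4 markers above background. Of the other lists, Cd8a (T cell), Cd79a (B cell), Col1a1 and Col1a2 (fibroblast) and Cdh1, Krt8 and Krt18 (epithelial) were above it. Cd3e and Cd3g (T cell), Cd79b and Ms4a1 (B cell), Epcam (epithelial) and Dcn (fibroblast) were not. Cd8a, Cd79a and Krt18 had means over all arrays of 3.81, 3.79 and 3.81, close to the background of 3.72. Of the 17 markers of other cell types, 0 passed by limma (adjusted p from 0.123 to 0.963), and 1, Cd79b, had an unadjusted p under 0.05 (0.0198). Their part in the results was not tested. The RNA spikes with poly-A tails (24 probe sets) had a mean of 6.96 ± 0.15 on pristine arrays and 6.71 ± 0.14 on modified ones (SD, n = 3). Their single arrays overlapped, at 6.78, 7.03 and 7.05 on pristine and 6.81, 6.55 and 6.77 on modified PEEK. The control probe sets for hybridisation had means of 9.23, 9.32 and 9.38 on pristine and 9.23, 9.02 and 9.16 on modified arrays. Whether the spike shift reflects the amount of RNA was not tested. Centring arrays on the poly-A spikes shifted the all-gene median change from 0.0088 to 0.26. Changes under that scaling are therefore given below also relative to it.

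Emp2 showed the largest change among the members, Cd53, Cd63 and Pmp22 fell by smaller amounts, and Emp1 rose. By limma, with p-values adjusted over all 19505 genes (Benjamini-Hochberg) and a threshold of 0.05, 5 of 30 members passed (16.7%), beside 10.4% of all genes. Of these, 1 was higher on modified PEEK (5.24% of all genes were) and 4 were lower (5.15% of all genes). Arrays of the surfaces did not overlap for 10 members, beside 28.8% of all genes, with 2 higher and 8 lower. The median change of the members, modified minus pristine, was -0.0793 on the log2 scale, against 0.0088 for all genes. Passed or not, 19 members had a lower mean on modified PEEK, as did 9428 of all 19505 genes. Centring arrays on the spikes moved the change of every gene up by the same amount. Only 6 members were lower under it: Cd37, Cd53, Cd63, Emp2, Pmp22 and Tspan31. Relative to all genes, the members' median was then -0.0881. Without any single array, the number higher was 0. Leaving out pristine PEEK replicate 1, 2 or 3 gave 2 lower, and centring on the spikes gave 1.

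A group of 7 members lay below background on both surfaces, namely Tspan1, Tspan6, Tspan8, Tspan10, Tspan12, Tspan15 and Tspan18, with means between 1.91 and 3.68. No fold is given for these. The other 23 were above background on at least 1 surface, and they include all 5 that passed. Of these 23, 21.7% passed and 39.1% did not overlap, beside 14.9% and 37.8% of all genes above background on a surface.

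**Figure D1:**
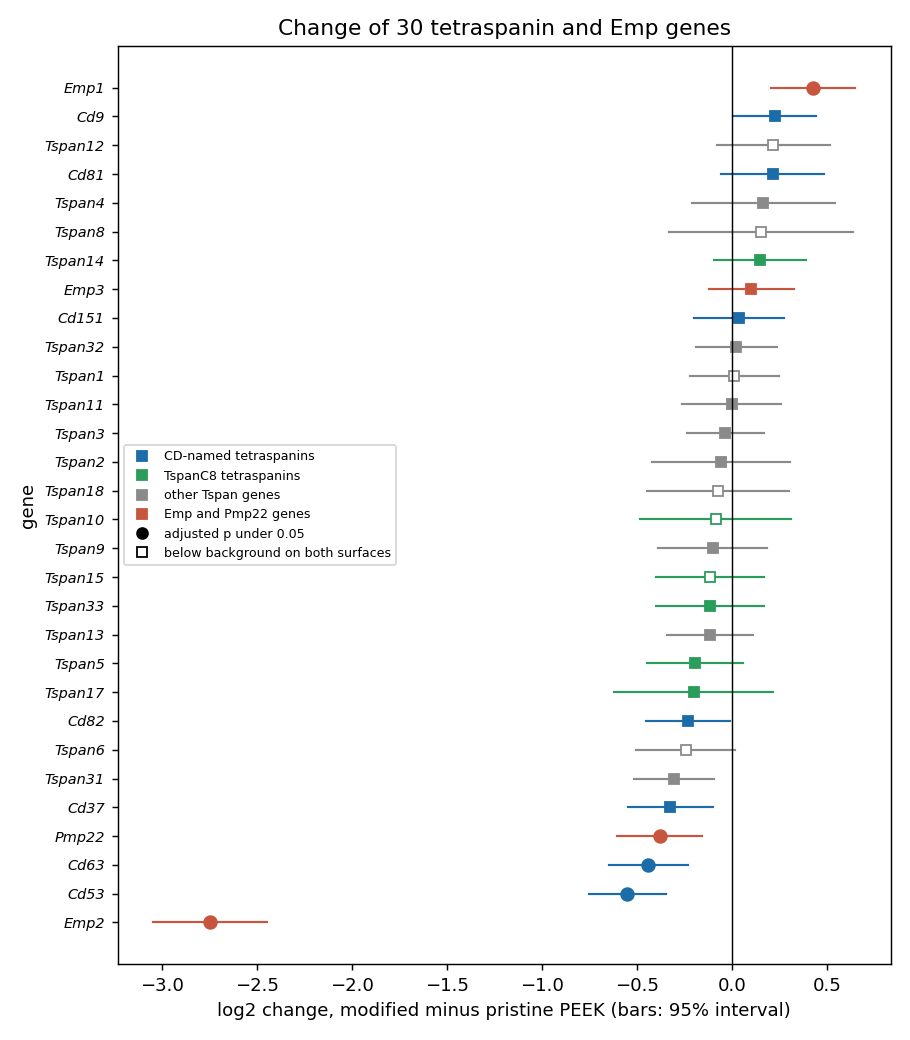
The log2 change (modified minus pristine PEEK) of the 30 members, one row a gene, with 95% intervals from the limma fit as bars. Circles passed at an adjusted p under 0.05, open symbols lay below background on both surfaces, and colours mark the role groups. Emp2 lies at -2.75, apart from the other 29 members, which lie between -0.55 and 0.43; with arrays centred on the spikes, 13 members near 0 change sign.

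Emp2, which encodes a membrane protein that affects integrin and caveolin trafficking in epithelia, had signals of 7.66, 8.09 and 7.89 on pristine PEEK and 5.23, 5.17 and 5.01 on modified PEEK. The lowest pristine array was more than 2 log2 units above the highest modified array. The means were 7.88 ± 0.22 and 5.13 ± 0.11 (SD, n = 3), so Emp2 fell by 2.75 ± 0.13 (SE), a 6.71-fold difference (limma adjusted p = 4.02e-05, lower on 3 of 3 arrays). It was the 8th largest fall of all genes. The call held in all 18 alternatives, with an adjusted p of up to 0.0083, and with arrays centred on the spikes the change was -2.50, or -2.76 relative to all genes.

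The 250 bases before the RefSeq start of Emp2 (GRCm38.p6, chr16:10313969-10314218, minus strand) are shown because Emp2 had by far the largest change. They were searched on both strands, as were all member windows, for short motifs: the AP-1 site TGANTCA, the cAMP response element TGACGTCA, the antioxidant response element core TGACNNNGC, the E-box CACGTG, the PU.1 site GAGGAAGT, the GC box GGGCGG and the TATA box TATAAA. Capitals mark the matches.
Emp2 upstream: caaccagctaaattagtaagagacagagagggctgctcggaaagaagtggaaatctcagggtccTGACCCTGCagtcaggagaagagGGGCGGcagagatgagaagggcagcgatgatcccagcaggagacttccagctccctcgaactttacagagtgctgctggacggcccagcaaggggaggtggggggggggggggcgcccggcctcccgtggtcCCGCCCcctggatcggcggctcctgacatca
The window held an antioxidant response element core starting 186 bases before the start and GC boxes at 163 and 31 bases before it. Of 32851 windows of this length in the RefSeq table, 10.2% held the antioxidant core and 32.7% a GC box.

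Emp1, the paralogue of Emp2, moved the other way. Its signals were 8.96, 9.12 and 9.04 on pristine and 9.47, 9.56 and 9.38 on modified PEEK, with no overlap. It rose from 9.04 ± 0.08 to 9.47 ± 0.09 (SD, n = 3), which is 1.35-fold (limma adjusted p = 0.0265, higher on 3 of 3 arrays). The direction was the same in the 3 scaling alternatives, with a change of 0.68, or 0.42 relative to all genes, under the spikes. Leaving out any single array ended the call, with limma adjusted p-values between 0.0510 and 0.105. So did taking replicate number as a block (limma adjusted p = 0.0773).

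Of the 2 windows of Emp1 in RefSeq, that at chr6:135362681-135362930 was the only one of the Emp group with the AP-1 letters, and both places in it are shown with 10 bases on either side (capitals mark the motif; GRCm38.p6, plus strand, chr6:135362776-135362802 and chr6:135362896-135362922).
Emp1 site 145 bases before the start: tctgtgtgtcTGAGTCAgagggagcta
Emp1 site 25 bases before the start: aaatccagacTGATTCAtagaaactcc
An AP-1 match was found in 6.75% of all windows and in 4.55% of the members' windows, among them also that of Tspan15.

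Pmp22, a component of peripheral myelin that is also made in other cells, had signals of 10.53, 10.60 and 10.50 on pristine and 10.24, 10.22 and 10.04 on modified PEEK. The surfaces did not overlap, and the gene fell by 0.38 ± 0.10 (SE), a 1.30-fold difference (limma adjusted p = 0.0449). It did not pass in any of the 6 fits with 1 array fewer (limma adjusted p between 0.0533 and 0.161). Nor did it pass with arrays centred on their medians (limma adjusted p = 0.0843) or on the spikes (change -0.13, or -0.39 relative to all genes). Pmp22 also did not pass with replicate number as a block (limma adjusted p = 0.109) or by the ordinary t statistic (adjusted p = 0.0606).

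Emp3, the remaining member of this family, had signals of 11.23, 11.40 and 11.25 on pristine and 11.46, 11.43 and 11.31 on modified PEEK, which overlap. Its change was 0.10, with a 95% interval from -0.12 to 0.33 (limma adjusted p = 0.615). The 4 genes of the family therefore included 1 higher (5.24% of all genes were), 2 lower (5.15%) and 1 that did not pass. Of these calls, those of Emp1 and Pmp22 were lost in each fit with 1 array fewer.

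**Figure D2:**
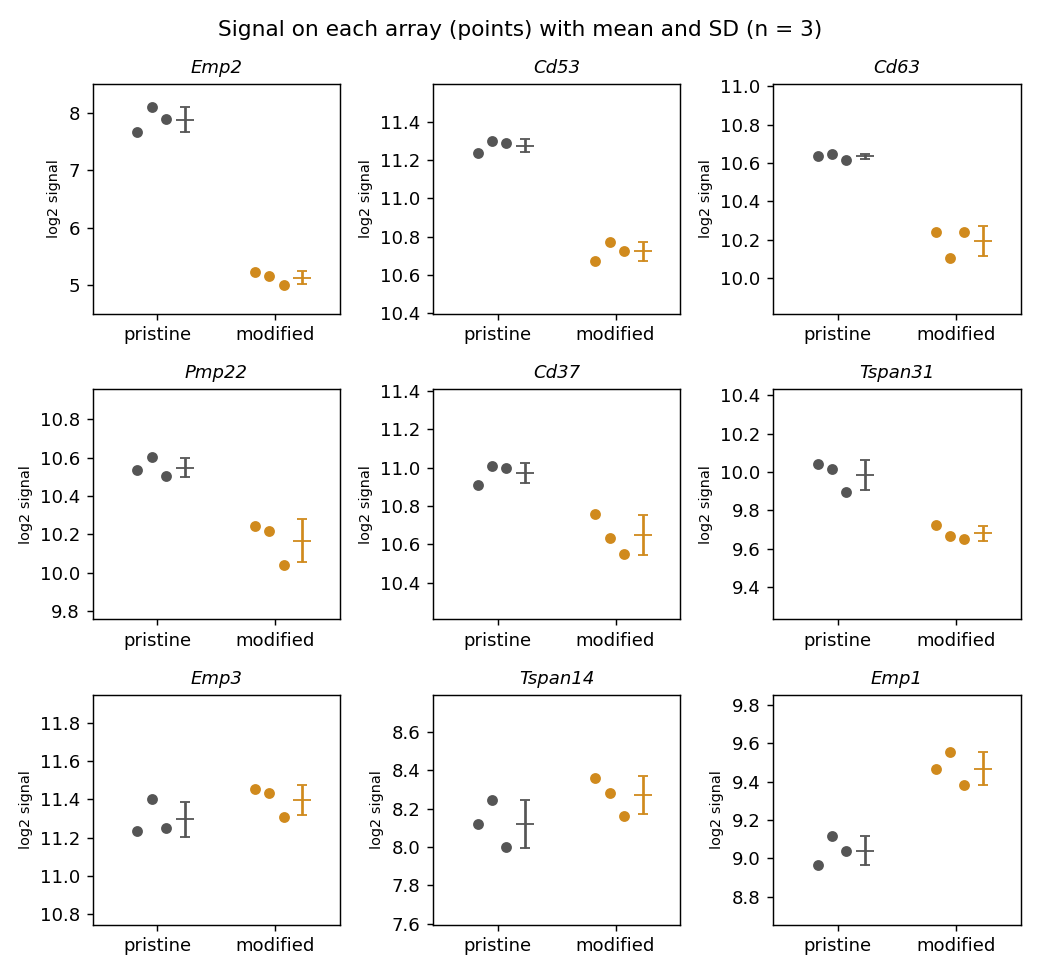
Log2 signals of 9 members on each of the 6 arrays (grey, pristine PEEK; orange, modified PEEK), with the mean and SD (n = 3) beside the points; the y axes do not start at 0, and that of Emp2 covers a wider range than the others. The surfaces overlap for Emp3 and Tspan14 and for none of the other 7.

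The tetraspanins known by CD numbers were all above background. Of these 7, 2 fell and 0 rose by limma (1 higher at an unadjusted p under 0.05, and 0 by the ordinary t statistic), and the median change was -0.23, or 0.015 with arrays centred on the spikes and -0.24 relative to all genes. Arrays did not overlap for 5 of them, 4 lower and 1 higher on modified PEEK. Over all genes, 10.4% passed and 28.8% did not overlap, and over the 13229 above background on a surface 14.9% and 37.8%.

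Cd53, found on most leukocytes, had signals of 11.24, 11.30 and 11.29 on pristine and 10.67, 10.77 and 10.72 on modified PEEK. The spread within a surface was small next to the gap between them. Cd53 fell from 11.27 ± 0.03 to 10.72 ± 0.05 (SD, n = 3), a 1.47-fold difference (limma adjusted p = 0.00562, lower on 3 of 3 arrays). Among the 13229 genes above background on a surface, 9.75% had a change at least as large. The call held without each of the 6 arrays (adjusted p from 0.0131 to 0.0340) but not with arrays centred on the spikes (change -0.30, adjusted p = 0.237; -0.56 relative to all genes).

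The window upstream of Cd53 (GRCm38.p6, chr3:106790150-106790399, minus strand) is shown as that of the tetraspanin with the largest change. No letters are in capitals, since 0 of the 7 motifs were found.
Cd53 upstream: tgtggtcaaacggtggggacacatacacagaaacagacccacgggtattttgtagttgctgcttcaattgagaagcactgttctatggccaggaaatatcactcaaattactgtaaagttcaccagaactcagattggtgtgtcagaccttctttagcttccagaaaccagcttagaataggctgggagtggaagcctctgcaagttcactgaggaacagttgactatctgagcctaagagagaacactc
Its GC content was 45.2%, against 62.8% for the Emp2 window. The median was 57.4% over the 44 windows of 29 members and 52.4% over all windows.

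Cd63, which sits in late endosomes and lysosomes and is a usual marker of exosomes, had signals of 10.64, 10.64 and 10.62 on pristine and 10.24, 10.10 and 10.24 on modified PEEK. The surfaces did not overlap. Cd63 fell by 0.44 ± 0.09 (SE), a 1.36-fold difference (limma adjusted p = 0.0179). It did not pass without pristine PEEK replicate 1, 2 or 3 (limma adjusted p = 0.0686, 0.0750 and 0.0720). Nor did it pass with arrays centred on the spikes (-0.19, or -0.45 relative to all genes, limma adjusted p = 0.407). With replicate number as a block the limma adjusted p was 0.0729.

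Cd37, a leukocyte tetraspanin that affects antigen presentation and integrin signalling, had signals of 10.91, 11.01 and 11.00 on pristine and 10.76, 10.63 and 10.55 on modified PEEK. The surfaces did not overlap, but the difference of -0.32 (95% interval -0.55 to -0.10) did not pass (limma adjusted p = 0.0770). It did pass when the lowest 25% of genes by signal were left out (adjusted p = 0.0455), and 7 of the 18 alternatives gave a call. It passed in 0 of 6 fits with 1 array fewer (limma adjusted p from 0.0565 to 0.228). With arrays centred on the spikes the change was -0.0767, or -0.33 relative to all genes (limma adjusted p = 0.741).

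The remaining members of this group did not pass. Cd82, known as a suppressor of metastasis, had signals of 9.85, 9.89 and 9.84 on pristine and 9.73, 9.63 and 9.51 on modified PEEK (limma adjusted p = 0.196). Its difference was -0.23, or 0.015 with arrays centred on the spikes. Cd9 and Cd81 are closely related, partner with the immunoglobulin protein Igsf8, and are known to restrain the fusion of macrophages. For Cd9, named after its values were seen, the signals were 10.43, 10.32 and 10.33 on pristine and 10.55, 10.52 and 10.69 on modified PEEK. Its arrays did not overlap, with a difference of 0.22 (95% interval 0.0060 to 0.44; limma adjusted p = 0.208). Cd81 had a difference of 0.21 (95% interval -0.06 to 0.48; limma adjusted p = 0.347), with overlapping arrays. Cd151, which binds laminin-binding integrins, had means of 7.68 ± 0.08 and 7.72 ± 0.13 (SD, n = 3; limma adjusted p = 0.885). Cd9 and Cd82 passed when the variance was let follow intensity (adjusted p = 0.00345 and 0.00764) and in no alternative without such a trend.

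**Figure D3:**
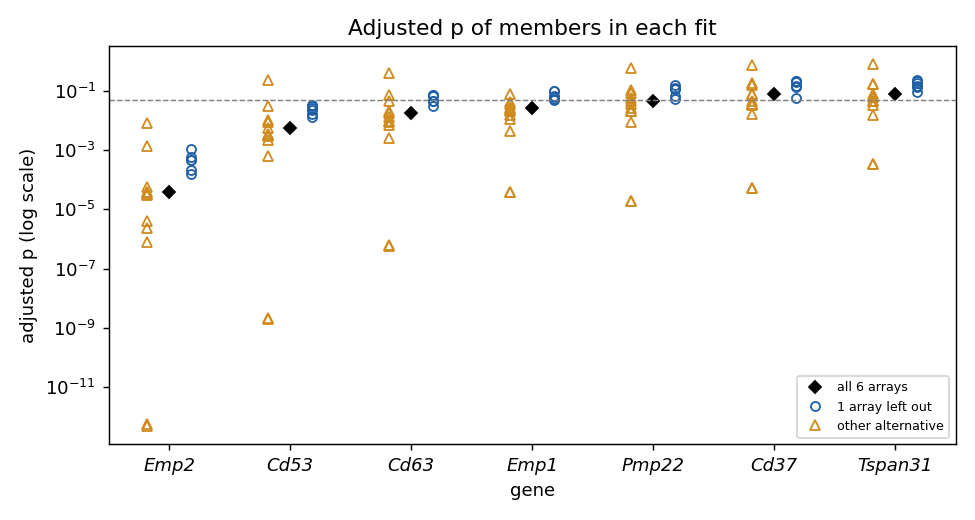
Adjusted p (log axis) of 7 members in the fit of all 6 arrays (black), with 1 array left out (blue) and under the other alternatives (orange); the dashed line is 0.05. Emp2 lies below the line in every fit shown, Cd53 in all but that centred on the spikes, and the other 5 on both sides of it.

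No single member of the TspanC8 group, whose proteins bind the protease ADAM10 and steer its trafficking to the cell surface, differed detectably. Of Tspan5, Tspan10, Tspan14, Tspan15, Tspan17 and Tspan33, 0 passed by limma, 0 had an unadjusted p under 0.05, and 0 passed by the ordinary t statistic. Arrays overlapped for all 6. Over all genes, 10.4% passed and 28.8% did not overlap, so with 6 genes these counts of 0 do not set the group apart. Tspan14 had signals of 8.12, 8.24 and 7.998 on pristine and 8.36, 8.28 and 8.16 on modified PEEK, with a difference of 0.15 (95% interval -0.10 to 0.39; limma adjusted p = 0.480). Of the others above background, Tspan17, Tspan5 and Tspan33 had differences of -0.20, -0.19 and -0.12, and Tspan10 and Tspan15 lay below background on both surfaces.

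Among the other 13 Tspan genes, 0 passed by limma (1 at an unadjusted p under 0.05, and 1 by the ordinary t statistic, Tspan31 in both cases). Arrays did not overlap for 2 of these 13, and 5 lay below background on both surfaces. Over all genes, 10.4% passed and 28.8% did not overlap. Tspan31 had signals of 10.04, 10.01 and 9.90 on pristine and 9.72, 9.67 and 9.65 on modified PEEK, which do not overlap. The difference was -0.30 (95% interval -0.51 to -0.0941, limma adjusted p = 0.0788). Calls came in 6 of 18 alternatives, namely the filters on dim genes, the variance trends on intensity and the ordinary t statistic. With 1 array fewer, 0 of 6 fits gave a call (limma adjusted p from 0.0924 to 0.231). With arrays centred on the spikes the change was -0.0565, or -0.31 relative to all genes (limma adjusted p = 0.821). Tspan4, which is enriched in the vesicles that migrating cells leave behind, had 1 modified array at 8.29 and the others at 7.80 and 7.65, against 7.64 to 7.82 on pristine PEEK (limma adjusted p = 0.631). Tspan3 stayed within 7.83 to 7.94 on all 6 arrays, with an interval of the difference from -0.23 to 0.17. Tspan13 (limma adjusted p = 0.562), Tspan9 (0.716), Tspan2 (0.882), Tspan11 (0.996) and Tspan32, a gene of blood cells (0.927), had overlapping arrays as well. Tspan6 lay below background on both surfaces and its arrays did not overlap (limma adjusted p = 0.258).

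For all 26 tetraspanins the 95% interval of the change lay inside a 2-fold difference in either direction, and for 22 inside 1.5-fold. The lowest bound was -0.75 (Cd53) and the highest 0.64 (Tspan8, below background). These intervals are per gene and not adjusted, array compression can make folds too small, and for the 7 genes below background they do not bound a change in RNA.

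Some tetraspanin genes are neighbours in the RefSeq gene order, with 0 protein-coding genes between them for Tspan18 and Cd82, Tspan11 and Tspan9, and Tspan32 and Cd81, and 1 between Cd151 and Tspan4. Cd82 had a change of -0.23 beside Tspan18, which lay below background. Changes in the other pairs, in the same order, were -0.0014 and -0.0998, 0.0221 and 0.21, and 0.0380 and 0.17. No gene of these pairs passed by limma.

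Windows upstream of the start were listed in RefSeq for 29 of the 30 members, 44 in all. The GC box was found in 18 of these windows (40.9%, against 32.7% of all windows) and the TATA box in 2, those of Emp3 and Tspan12. The PU.1 letters, bound by a master regulator of macrophage genes, were in windows of Cd37 and Cd82 (4.55%, against 2.44%). The E-box was in windows of Cd37 and Tspan4 (4.55%, against 6.02%). The antioxidant core was in Emp1, Emp2, Tspan1, Tspan9 and Tspan10 (11.4%, against 10.2%), and the cAMP response element in 0 (against 1.55%). These matches describe letters in the windows only.

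Genes that work with the members were followed from lists chosen with earlier results known. Their counts stand beside 5.24% of all genes higher and 5.15% lower, or 7.46% and 7.44% of those above background on a surface. Of 11 genes for ADAM10, ADAM17 and proteins they cut, 2 were higher and 1 lower by limma, with a median change of -0.18 (0.0665 with arrays centred on the spikes, -0.19 relative to all genes). Adam10 itself had means of 9.20 ± 0.08 and 9.34 ± 0.07 (SD, n = 3; limma adjusted p = 0.482). The chemokine gene Cxcl16 rose 2.33-fold (limma adjusted p = 0.000271). The interleukin-6 receptor gene Il6ra rose 1.46-fold (limma adjusted p = 0.0172, and 0.0762 without pristine PEEK replicate 3). The receptor tyrosine kinase gene Axl fell by 0.79 (limma adjusted p = 0.0117), and this call was lost without pristine PEEK replicate 3 or modified PEEK replicate 3 (up to 0.0549) and with arrays centred on the spikes (0.0551).

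Of 16 integrin and immunoglobulin partners, 1 was higher and 2 lower, beside 5.24% and 5.15% of all genes. In both directions 18.8% of the list passed, beside 10.4% of all genes and 14.9% of those above background on a surface. The median change was -0.24 (0.0118 with arrays centred on the spikes, -0.24 relative to all genes). Itga4, the integrin alpha 4 gene, rose from 10.71 ± 0.10 to 11.63 ± 0.02 (SD, n = 3; 1.89-fold, limma adjusted p = 0.000731). Itgam, the alpha M chain of the macrophage integrin Mac-1, fell by 0.59 (limma adjusted p = 0.00544). Its beta 2 chain gene Itgb2 fell by 0.41 (limma adjusted p = 0.0410), which held without modified PEEK replicate 1 and was lost without any other single array (up to 0.156). Neither passed with arrays centred on the spikes, where 0 of this list were lower. Itgb1 (-0.13, limma adjusted p = 0.422) and Igsf8 (-0.35, limma adjusted p = 0.0593) did not pass.

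Of 15 exosome genes, 4 were lower and 1 higher, beside 5.15% and 5.24% of all genes and 7.44% and 7.46% of those above background. The median change was -0.30, which was -0.0530 with arrays centred on the spikes and -0.31 relative to all genes. The flotillin gene Flot1 fell by 0.70 (limma adjusted p = 0.00882), the ESCRT sorting gene Hgs by 0.52 (0.0258), the recycling gene Rab11a by 0.49 (0.0159) and the ESCRT gene Tsg101 by 0.36 (0.0479). With 1 array left out, Tsg101 passed in 0 of 6 fits, Hgs in 1 (without modified PEEK replicate 1) and Rab11a in 4 (not without pristine PEEK replicate 2 or 3). Rab27a, which docks exosome-bearing compartments at the membrane, rose by 0.62 (limma adjusted p = 0.00906). Leaving out pristine PEEK replicate 1 or modified PEEK replicate 2 or 3 gave 2 lower, leaving out pristine PEEK replicate 2 or 3 gave 1, and centring on the spikes gave 0. Sdcbp (limma adjusted p = 0.317) and Pdcd6ip (0.354), which link tetraspanins and cargo to exosome budding, did not pass.

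The macrophage fusion list had 5 of 12 genes lower and 0 higher by limma (2 higher at an unadjusted p under 0.05, and 0 by the ordinary t statistic). Over all genes 5.15% were lower and 5.24% higher, and over those above background on a surface, as all 12 were, 7.44% and 7.46%. The median of the list was -0.30. With arrays centred on the spikes it was -0.0569, or -0.31 relative to all genes. The list then had 3 lower and 1 higher, beside 290 lower and 1575 higher of all genes. The proton pump subunit gene Atp6v0d2 fell 5.39-fold and the phosphatase gene Acp5 2.65-fold, and Dcstamp, a membrane protein needed for fusion, 1.79-fold (limma adjusted p = 4.02e-05, 0.000369 and 0.00125). Adam8 fell by 0.75 (limma adjusted p = 0.00203), and Mmp9, below background on modified PEEK, was at least 1.48-fold lower (limma adjusted p = 0.00983). Neither passed with arrays centred on the spikes (0.0688 and 0.0605). Sirpa (10.26 on both surfaces) and Tyrobp (limma adjusted p = 0.655) did not pass.

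Other families with several membrane spans were mixed. Of 14 L6 and Ms4a genes, 2 were higher and 2 lower, beside 5.24% and 5.15% of all genes. Leaving out pristine PEEK replicate 1 gave 3 higher. Tm4sf19 fell by 1.28 (limma adjusted p = 0.000227) and Ms4a6d 2.07-fold, while Ms4a6b rose by 0.55 and Tm4sf5, below background on pristine PEEK, was at least 1.71-fold higher. Of 6 claudin-like relatives of the Emp genes, 1 passed, beside 10.4% of all genes. This was Cldn12, which fell by 0.45 (limma adjusted p = 0.0251). The call held without modified PEEK replicate 1 and was lost without any other single array (up to 0.0941) and with arrays centred on the spikes. Tetraspanin genes outside the naming rule (Upk1a, Upk1b, Prph2 and Rom1) had 0 of 4 that passed by limma, 0 at an unadjusted p under 0.05 and 0 by the ordinary t statistic. The MHC class II list holds presenting and peptide-loading chains and Ciita, their nuclear transactivator. Of its 6 genes, 0 passed by limma and 0 by the ordinary t statistic. At an unadjusted limma p under 0.05, 3 were higher and 1 lower. That threshold was met by 4424 of all 19505 genes, and by 3957 of the 13229 above background on a surface. Without modified PEEK replicate 1, H2-DMb1 passed as higher (limma adjusted p = 0.0254).

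**Figure D4:**
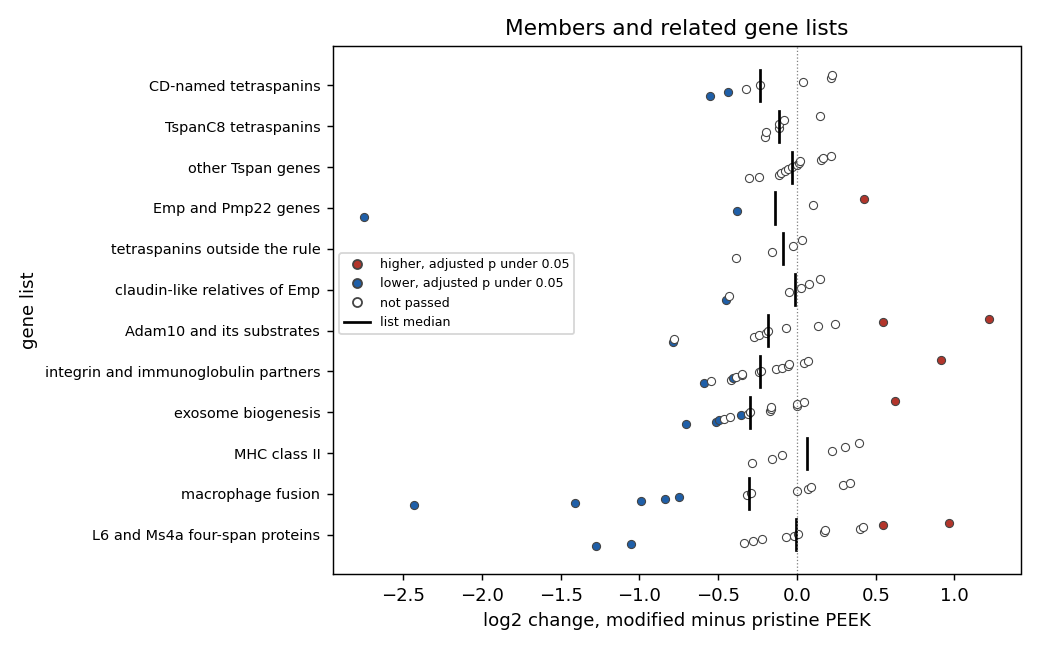
Log2 change (modified minus pristine PEEK) of each gene in the member groups and related lists, one point a gene, with the list median as a bar; red points passed as higher and blue points as lower. Emp2 at -2.75 and Atp6v0d2 at -2.43 lie farthest left. With arrays centred on the spikes all points move right by the same amount, and 0 genes of the integrin and exosome lists then pass as lower, though some still lie left of 0.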

How the data were processed

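RNA from 6 samples, 3 per surface, was measured on Affymetrix arrays, labelled as biotinylated cDNA from 250 ng total RNA per the labels' protocols. The authors deposited log2 signals per probe set. Per the submitters' processing notes RMA was used in some role; its version and the genome build are not given in the sources used here. The log2 scale was read off the values (array medians 4.98 to 5.10). Where arrays are made alike in distribution, as RMA usually does, a shift common to all RNA is removed.

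Of 29129 features, 6923 were array controls; 19572 probe sets had 1 gene name in the platform annotation, and the brightest per gene gave 19505 genes. The comparison used lmFit and eBayes of limma 3.58.1 under R 4.3.3 (no trend, two-sided, 4 residual and 4.09 prior degrees of freedom), fitted on all genes and adjusted by Benjamini-Hochberg, with no filter on dim genes. The script was tested on simulated data. The number of arrays limits the precision.

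The members and lists were chosen with earlier results of these data known. Array values were to be given for members that passed or changed at least 1.5-fold without overlap, and for the member of each role group with the highest mean among those that did not pass. From each other list, the eligible genes were the 4 largest changes among those that passed, and the 2 highest means among those that did not. Outside this rule, values of Cd9, Cd81, Cd82, Cd151, Tspan2, Tspan3, Tspan4, Tspan5, Tspan6, Tspan9, Tspan11, Tspan13, Tspan17, Tspan32, Tspan33, Adam8, Adam10, Igsf8 and Tsg101 are given; these were chosen after their values were seen. All 30 members matched a RefSeq symbol, and sequences come from RefSeq (GRCm38.p6). Tspan7, Cd74 and Ms4a4a were not analysed here. Of the per-sample columns, 0 were left unused.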

Additional observations from a re-analysis of the deposited data

How the results depend on the processing

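Replicate numbers are shared between the surfaces. Deviations of same-numbered arrays from their group means correlated at -0.17, -0.16 and 0.0685, and those of unlike-numbered arrays at -0.0713 to 0.22. With 3 arrays per surface these deviations depend on one another, so the values cannot settle whether the numbers pair the samples. The main fit took no pairing. With the replicate block, 0 members were higher and 2 lower, in place of 1 and 4, and 1268 genes passed in place of 2027. Leaving out 1 array gave 0 members higher for each of the 6 arrays and 2 to 3 lower, with 1142 to 1863 genes passing. A variance trend on intensity, plain or robust, gave 2 members higher and 7 lower (3305 and 3282 genes). Arrays centred on the poly-A spikes gave 1 higher and 1 lower, with 1575 genes higher and 290 lower. The other alternatives gave 1 higher and 3 to 6 lower; these were renewed quantile or median scaling, filters on dim genes, the mean of probe sets, array weights and the ordinary t statistic. For single members, 476 alternative values kept their side of the threshold, 23 lost a call and 17 gained one, and no called change turned its direction. Low signal limits what can be said of the 7 members below background. All 7 were left out by the filter on background and by that on the lowest 50% of genes. Of these 7, only Tspan15 was tested with the lowest 25% left out. Tspan2, Tspan11, Tspan32 and Tspan33, which lay above background, were also left out by the filter on the lowest 50%.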
